A study of Mus musculus with 8 samples.

Results

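The Wnt ligands, their Frizzled receptors, the co-receptors Lrp5 and Lrp6 and the secreted antagonists of the Sfrp and Dkk families were examined for 4 histone modifications in Lewis lung carcinoma, a murine lung tumor. They were taken by symbol from the protein-coding genes of GENCODE vM1 on mm9, which gave 39 of 22367 genes: 19 Wnt ligands, 10 Frizzled receptors, 2 co-receptors, 4 Sfrp and 4 Dkk genes. The rule itself uses no measured value. Chromatin came from subcutaneous isografts in female C57BL/6J mice, 6 to 8 weeks of age when bought. An isograft came from the LLC-NR line, whose tumors respond to VEGF-Trap, an inhibitor of VEGF, or from LLC-R, a single resistant line obtained after 5 rounds of selection with VEGF-Trap in mice. Nuclei were digested with micrococcal nuclease, chromatin was precipitated for H3K4me3, H3K9ac, H3K27me3 or H3K36me3, and 1 library was sequenced per line and mark, 8 libraries in all.

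Wnt proteins are lipid-modified secreted ligands that bind a Frizzled receptor together with Lrp5 or Lrp6, which stabilizes beta-catenin, or that signal through Frizzled without it to steer cell polarity and movement. Sfrp proteins bind the ligands, and most Dkk proteins bind the co-receptors. These genes act in lung branching, in vessel formation and in many carcinomas, and in embryonic stem cells a large part of the ligand and receptor genes carry H3K4me3 and H3K27me3 together. H3K4me3 and H3K9ac mark promoters in use, H3K27me3 is set by Polycomb complexes on silent genes, and H3K36me3 accumulates along transcribed gene bodies.

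With 1 library per group there was no replicate, so no p-value is given and differences between LLC-NR and LLC-R were not tested. The values are numbers of peaks, each 147 bp wide, with no height. A promoter, taken as 1 kb before to 0.5 kb after the transcription start site (TSS), holds at most 9 of them. The libraries held between 5660458 and 9101721 peaks. LLC-R held 1.26 times as many H3K27me3 peaks and 1.36 times as many H3K36me3 peaks as LLC-NR, 0.997 times as many H3K4me3 peaks and 0.919 times as many H3K9ac peaks, and the LLC-R libraries of H3K27me3 and H3K36me3 also had more uniquely mapped reads, those of H3K4me3 and H3K9ac fewer. Where a pair of values stands without names, the first is LLC-NR and the second LLC-R. All 95% intervals are exact Clopper-Pearson intervals, which treat peaks as independent counts and cover no other error. Peaks do not overlap and a region holds a limited number, so the intervals are approximate, and whether one excludes a value is descriptive. An isograft also holds host cells, and fewer cells with a mark cannot be told apart from less of the mark per cell.

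The promoters of these genes are rich in CpG. By the CpG ratio and G+C content of their sequence, 32 of the 39 were high-CpG promoters (HCPs, 82.1%), against 53.7% of all genes. The other 7 were the intermediate-CpG promoters (ICPs) of Dkk1, Dkk3, Dkk4, Wnt10a, Wnt16 and Wnt8b and the low-CpG promoter (LCP) of Wnt8a. The 250 bases upstream of the TSS are printed for 4 genes that span this range and to which the values below return, with every CG in capitals, 5′ to 3′ on the strand of the gene, from NCBIM37 (mm9). Lrp6 (chr6:134516984-134517233, minus strand) has 45 CG and 78.8% G+C, Wnt2b (chr3:104764628-104764877, minus strand) 36 CG and 80.8%, Wnt1 (chr15:98620038-98620287, plus strand) 23 CG and 71.6%, and Dkk4 (chr8:23734265-23734514, plus strand) 4 CG and 48.4%.
Lrp6: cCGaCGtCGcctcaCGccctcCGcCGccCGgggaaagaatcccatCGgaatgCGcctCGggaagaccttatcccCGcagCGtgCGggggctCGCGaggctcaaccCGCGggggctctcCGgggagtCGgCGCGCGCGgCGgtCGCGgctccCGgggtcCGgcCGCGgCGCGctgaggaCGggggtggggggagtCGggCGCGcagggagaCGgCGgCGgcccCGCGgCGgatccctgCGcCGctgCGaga
Wnt2b: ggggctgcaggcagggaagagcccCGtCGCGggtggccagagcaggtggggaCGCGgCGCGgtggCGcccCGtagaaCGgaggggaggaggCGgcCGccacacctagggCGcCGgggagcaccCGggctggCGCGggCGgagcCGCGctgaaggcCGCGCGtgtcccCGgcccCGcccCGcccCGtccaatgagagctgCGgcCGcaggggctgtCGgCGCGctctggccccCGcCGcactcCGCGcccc
Wnt1: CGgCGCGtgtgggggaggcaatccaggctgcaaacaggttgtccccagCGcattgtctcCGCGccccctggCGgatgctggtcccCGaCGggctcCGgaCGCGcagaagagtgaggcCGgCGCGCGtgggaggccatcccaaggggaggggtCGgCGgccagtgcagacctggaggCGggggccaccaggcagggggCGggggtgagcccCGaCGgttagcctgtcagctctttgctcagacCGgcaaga
Dkk4: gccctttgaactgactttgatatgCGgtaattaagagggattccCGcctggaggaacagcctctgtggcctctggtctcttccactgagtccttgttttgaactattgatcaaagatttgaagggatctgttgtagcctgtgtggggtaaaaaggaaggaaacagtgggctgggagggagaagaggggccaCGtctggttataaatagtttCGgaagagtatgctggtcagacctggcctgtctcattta
The Dkk4 sequence holds CTTTGAA as well as CTTTGAT, words bound by the TCF/LEF partners of beta-catenin, and TATAAA. Searched on both strands over the same 250 bases, at least 1 of the words CTTTGAA, its variant CTTTGAT, and further CTTTGTA or else CTTTGTT lay upstream of 4 of the 39 genes (Dkk4, Fzd7, Wnt11 and Wnt8a), against 13.6% of all genes and 8.87% of HCP genes. GGGCGG, the core of the Sp1 site, lay upstream of 25 of 39, among them Lrp6, Wnt2b and Wnt1, against 40.1% of all genes and 64.8% of HCP genes.

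H3K27me3 stood out around these genes in both lines. In the 10 kb centred on the TSS the 39 genes held 38.97 ± 4.25 H3K27me3 peaks (mean ± SD across genes) in LLC-NR and 43.2 ± 2.19 in LLC-R, where all genes had means of 29.4 and 36.8 and HCP genes 29.8 and 38.4. The number exceeded the median of all genes (31 peaks in LLC-NR, 39 in LLC-R) for 37 of 39 genes in each line, against 46.9% of all genes for LLC-NR and 46.0% for LLC-R. Fzd10 (29 peaks) and Dkk4 (31) were the exceptions in LLC-NR, and Fzd8 (37) and Fzd9 (39) in LLC-R. Among the 32 with an HCP, 31 exceeded the median in LLC-NR as did 30 in LLC-R, against 43.3% and 45.9% of HCP genes. Higher cut-offs gave the same picture, with 25 and 28 of 39 above the upper quartile of all genes (24.0% and 20.8%), and 13 and 11 above the 90th percentile (7.91% and 7.32%). The highest numbers were 45 peaks at Wnt11 and Wnt9b in LLC-NR and 47 at Wnt4 in LLC-R. Fzd10 went from 29 peaks, the lowest of the 39 in LLC-NR, to 46 in LLC-R. By role, the mean was lowest for the co-receptors in both lines, Lrp6 with 32 and 40 peaks and Lrp5 with 33 and 40, while the means of ligands, receptors, Sfrp and Dkk genes were 38.4 or more in LLC-NR and 42.6 or more in LLC-R. The 7 genes without an HCP did not stand below the others, at 39.6 ± 4.31 and 43.0 ± 1.41 peaks. Fbxo16 has a TSS within 5 kb of that of Fzd3, and Epdr1 of that of Sfrp4, so their windows are shared.

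**Figure D1:**
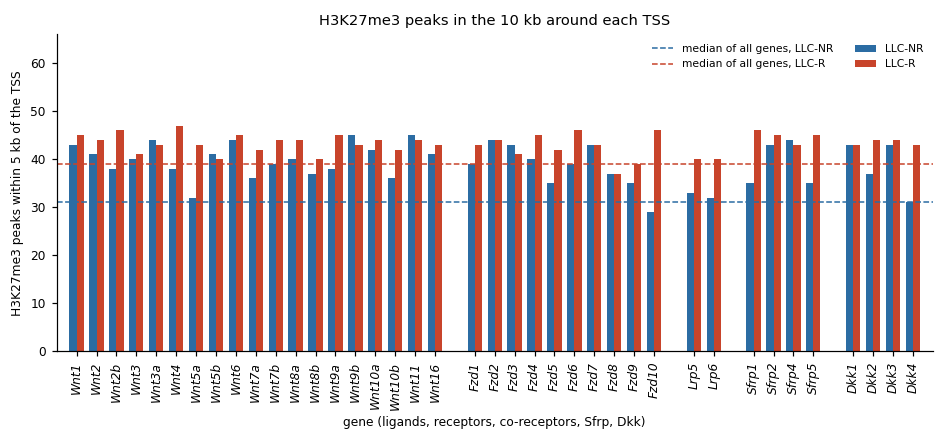
Number of H3K27me3 peaks within 5 kb of each TSS (vertical axis) for the 39 genes in LLC-NR (blue bars) and LLC-R (red bars), 1 library each; dashed lines give the median of all genes, 31 for LLC-NR and 39 for LLC-R. All bars but Fzd10 and Dkk4 in LLC-NR, and Fzd8 and Fzd9 in LLC-R, stand above the line of their line's library.

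The other marks gave no such excess over HCP genes. In the same 10 kb, H3K4me3 averaged 30.7 peaks in LLC-NR with 29.6 in LLC-R, below the 34.4 and 31.9 of HCP genes, and H3K9ac averaged 39.4 and 35.1, against 40.7 and 36.9. H3K36me3 averaged 25.3 in LLC-NR, against 28.9 for HCP genes, and 37.5 in LLC-R, against 38.3. So the 39 genes lay between all genes and HCP genes in H3K4me3, and below HCP genes in all marks but H3K27me3.

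**Figure D2:**
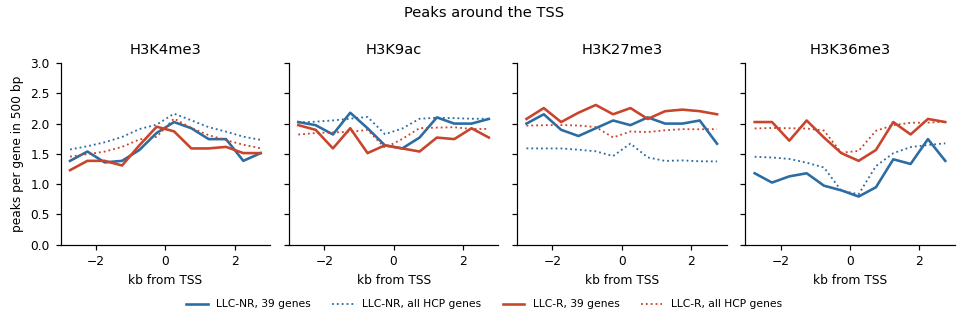
Mean number of peaks per gene in 500-bp steps (vertical axis) against distance from the TSS in kb for the 39 genes (solid) and all HCP genes (dotted) in LLC-NR (blue) and LLC-R (red), 1 library each. The solid H3K27me3 lines run above the dotted line of the same line of cells across most of the window, and the solid H3K36me3 line of LLC-NR runs below it upstream of the TSS.

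Promoter by promoter, most of the 39 genes were scored for active and repressive marks together. A mark was scored present when the promoter held at least the mean number of all promoters, which was 4.91 H3K4me3, 5.51 H3K9ac and 4.56 H3K27me3 peaks in LLC-NR. In LLC-R the means were 4.61, 4.97 and 5.46. H3K27me3 with H3K4me3 or H3K9ac (bivalent) was found at 29 of 39 promoters in LLC-NR with 35 in LLC-R, against 48.4% and 53.1% of all genes. Among HCPs it was 25 and 29 of 32, against 52.2% and 54.6%. Active marks without H3K27me3 were found at 5 promoters in LLC-NR (Dkk4, Lrp5, Lrp6, Sfrp1 and Wnt5b; 29.8% of all genes) and at 3 in LLC-R (Dkk4, Lrp6 and Wnt5b; 28.3%). H3K27me3 alone was scored at 5 in LLC-NR (Dkk1, Fzd6, Wnt3, Wnt7a and Wnt8b; 8.17%) and at 1 in LLC-R (Fzd6; 5.7%). No promoter lay below all 3 means (13.6% and 12.9% of all genes did). These states rest on small whole numbers, and 1 peak more or fewer can change them. Against the mean of the same CpG class, 21 and 27 promoters were bivalent and 13 and 9 repressive.

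The state differed between the lines for 6 of the 39 genes, against 37.9% of all genes. Lrp5 and Sfrp1 were active in LLC-NR but bivalent in LLC-R, and Dkk1, Wnt3, Wnt7a and Wnt8b were repressive in LLC-NR but bivalent in LLC-R. The 29 promoters that were bivalent in LLC-NR were also bivalent in LLC-R. Lrp6, which transmits the ligand signal into the cell, had the lowest promoter H3K27me3 of the 39 in LLC-NR, at 3 peaks, and 5 peaks in LLC-R.

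Among the ligands, Wnt2b, which acts in lung specification, had 5 promoter H3K27me3 peaks in LLC-NR where LLC-R had 8, while H3K4me3 went from 6 to 5 and H3K9ac was 5 in each. Wnt9b, a ligand of the kidney duct, had 4 H3K4me3 peaks in LLC-NR where LLC-R had 7. Wnt8b, a forebrain ligand with an ICP, had 2 and 5. These were the 3 ligands that differed by 3 or more promoter peaks in H3K4me3, H3K9ac or H3K27me3. Wnt2, a ligand of lung mesenchyme, had 7 and 6 H3K4me3, 8 and 6 H3K9ac and 7 and 7 H3K27me3 peaks. Wnt4, which acts in kidney and ovary development, stood apart by 1 and 2 H3K9ac peaks beside 5 and 5 H3K4me3 peaks. Of the non-HCP ligands, Wnt10a held 8 H3K4me3 peaks in each line, the most of the 39 genes, Wnt16 4 and 5, and Wnt8a 2 and 3, with 8 and 7 H3K27me3 peaks at Wnt8a.

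The ligands include 4 pairs of neighbours. Wnt1 and Wnt10b on chromosome 15 have TSSs 11.7 kb apart, and Wnt1 held 5 and 7 H3K4me3 peaks (LLC-NR, then LLC-R) where Wnt10b held 7 and 6. Wnt3 and Wnt9b on chromosome 11 lie 24.3 kb apart, and H3K4me3 was 4 and 4 at Wnt3 and 4 and 7 at Wnt9b. Wnt6 and Wnt10a on chromosome 1 lie 19.6 kb apart and held 7 and 6, and 8 and 8. Wnt3a and Wnt9a, also on chromosome 11, lie 16.2 kb apart and held 5 and 6, and 7 and 5. Neighbours thus differed by up to 3 H3K4me3 peaks in 1 line. The intergenic stretches of the 4 pairs contain no other protein-coding gene and carried between 3.84 and 4.39 H3K27me3 peaks per kb in LLC-NR and between 4.20 and 4.53 in LLC-R. As deposited, H3K36me3 between Wnt1 and Wnt10b was 1.79 peaks per kb (21 peaks) in LLC-NR and 4.10 (48 peaks) in LLC-R, the widest difference of the 4 stretches. The LLC-R library of H3K36me3 held 1.36 times the peaks and 2.32 times the uniquely mapped reads of LLC-NR. The stretches were not scaled by either.

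Among the receptors, Fzd9 was the only one that differed by 3 promoter peaks in H3K4me3, H3K9ac or H3K27me3, at 7 H3K9ac peaks in LLC-NR with 4 in LLC-R beside 6 H3K4me3 peaks in each. Fzd1, which signals to beta-catenin, held 6 H3K4me3 and 7 H3K9ac peaks in both lines and 7 and 8 H3K27me3 peaks. Low H3K9ac was seen at Fzd10, with 1 peak in each line beside 6 H3K4me3 peaks, and at Fzd8, with 3 and 2. Fzd6, a receptor of planar cell polarity, held 4 H3K4me3 peaks in each line and was the only gene scored repressive in both.

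Among the antagonists, Sfrp1 had 2 H3K9ac peaks in LLC-NR with 5 in LLC-R together with 4 and 7 H3K27me3 peaks, so both marks were more frequent in LLC-R. Sfrp5 held 5 and 5 H3K4me3, 3 and 3 H3K9ac and 5 and 6 H3K27me3 peaks. Dkk1, which blocks Lrp6, and Dkk3, a distant relative of the other Dkk genes, each went from 2 H3K4me3 peaks in LLC-NR to 5 in LLC-R. Dkk4 went the other way, from 3 H3K4me3 peaks in LLC-NR to 1 in LLC-R, the lowest value of the 39, and 8 and 6 H3K9ac peaks. The co-receptor Lrp5 had 4 and 7 H3K27me3 peaks, with 7 and 6 H3K4me3 peaks.

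Set against all genes, a difference of 3 or more promoter peaks was met in H3K4me3 by 4 of the 39 as higher in LLC-R (Dkk1, Dkk3, Wnt8b and Wnt9b; 2.5% of all genes) and by 0 as lower (5.26%). Dkk1, Dkk3 and Wnt8b started at 2 peaks in LLC-NR, and 10.3% of all promoters with 2 or fewer were higher by as much. In H3K9ac, 1 was higher (Sfrp1; 1.11%, and 5.16% of promoters with 2 or fewer peaks in LLC-NR) and 1 lower (Fzd9; 6.4%). In H3K27me3, 3 were higher (Lrp5, Sfrp1 and Wnt2b; 13.1%) and 0 lower (0.519%), and after division by the peaks of the library none was higher by 3. Scaled by uniquely mapped reads, these 3 genes had fewer H3K27me3 peaks in LLC-R. In H3K36me3, which is usually sparse at promoters, 14 were higher (31.6%) and 0 lower (0.125%), the widest being Wnt5a, at 0 in LLC-NR with 5 in LLC-R. Divided by the peaks of the library, only Wnt5a was higher by 3 or more in H3K36me3, and scaled by uniquely mapped reads none was and Wnt16 was lower. In H3K27me3, 23 genes had more promoter peaks in LLC-R, 10 the same number and 6 fewer, against 58.5%, 26.5% and 15.0% of all genes. In H3K4me3 the split was 12, 10 and 17, against 25.6%, 30.9% and 43.5%, and in H3K9ac 8, 11 and 20, against 19.2%, 30.3% and 50.5%. In H3K36me3 it was 34, 5 and 0, against 78.0%, 16.2% and 5.77%. These splits turned on the scale. Divided by the peaks of the library, LLC-R had the higher value in H3K27me3 at 10 of 39 genes, in H3K4me3 at 22 and in H3K9ac at 19, and scaled by uniquely mapped reads at 0, 33 and 38.

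**Figure D3:**
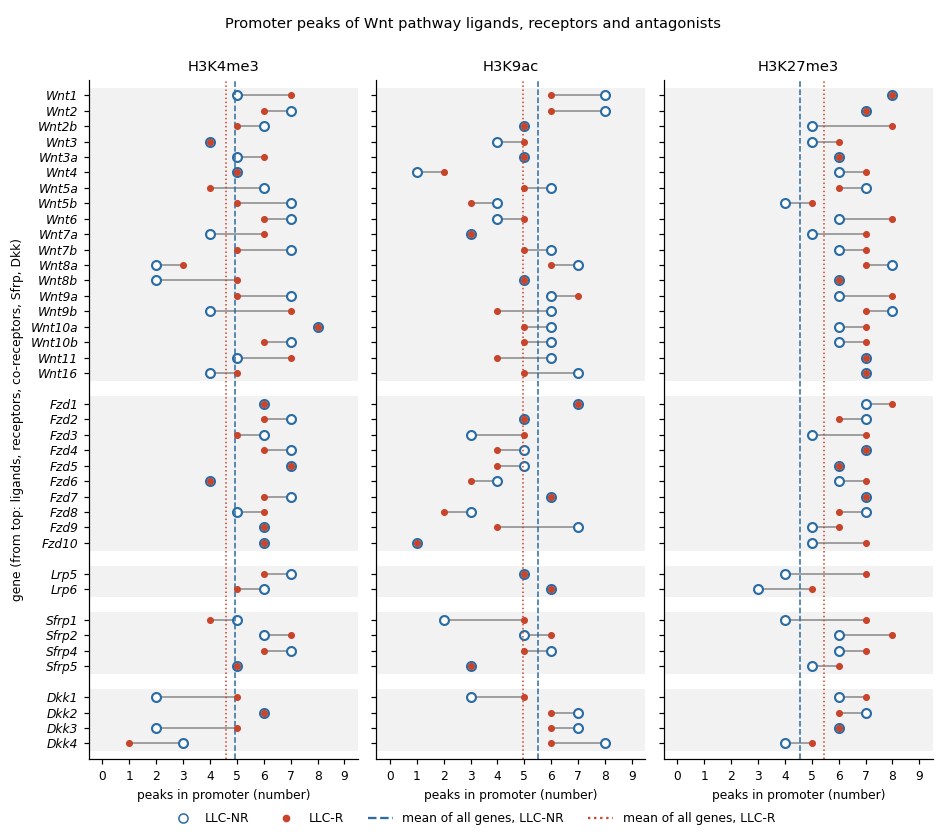
Number of peaks in each promoter (horizontal axis) for the 39 genes, by mark, in LLC-NR (open blue circles) and LLC-R (red points), 1 library each, joined by a line; vertical lines give the mean of all genes in LLC-NR (dashed) and LLC-R (dotted). H3K27me3 points lie mostly right of the means of 4.56 and 5.46, whereas H3K4me3 is low at Dkk4, Wnt8a and, in LLC-NR, Dkk1, Dkk3 and Wnt8b.

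The gene bodies separated the co-receptors from nearly all ligands, receptors and antagonists. For each line, peaks per kb of gene body were divided by the mean of all bodies (2.72 H3K27me3 and 2.78 H3K36me3 peaks per kb in LLC-NR, whereas LLC-R had 3.55 and 3.60), and the log2 ratio of H3K27me3 over H3K36me3 was taken. It lay above 0 for 34 of the 39 genes in each line, and below 0 in the same 5 genes in both: Lrp6, Lrp5, Wnt2b, Wnt5a and Wnt7b. Of all genes, 47.9% were below 0 in LLC-NR with 49.1% in LLC-R, and of HCP genes 66.6% and 66.2%, where 5 of 32 HCP genes of this family were. The median of the 39 log2 ratios was 0.61 for LLC-NR and 0.14 for LLC-R, against 0.03 and 0.02 for all genes and −0.45 and −0.12 for HCP genes. Ratios of 0.5 or more were held by 27 of 39 in LLC-NR (25.8% of all genes) and by 3 in LLC-R (Dkk1, Fzd10 and Wnt1; 4.13%). The mean of windows over 5 kb from any TSS, which may lie inside genes, was also used in place of all bodies. On that reference, 8 genes were below 0 in LLC-NR (the 5 and Dkk4, Fzd5 and Wnt16) and 11 in LLC-R (the 5 and Dkk2, Dkk4, Fzd5, Sfrp2, Wnt2 and Wnt8a).

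Lrp6, on chromosome 6 from 134396494 to 134516983, held 263 H3K27me3 and 463 H3K36me3 peaks in LLC-NR with 444 and 504 in LLC-R. Its log2 ratio was −0.78 (95% interval −1.01 to −0.56) in LLC-NR and −0.16 (−0.35 to 0.02) in LLC-R. Lrp5, on chromosome 19 from 3584825 to 3686564, held 224 and 359 peaks in LLC-NR with 365 and 431 in LLC-R, for log2 ratios of −0.65 (−0.90 to −0.40) and −0.22 (−0.42 to −0.01). These were the 2 genes whose interval lay below 0 in LLC-NR, and Lrp5 the only 1 in LLC-R. In LLC-NR both co-receptors thus carried more H3K36me3 relative to H3K27me3 than the average gene, and in LLC-R the interval of Lrp6 included 0.

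Wnt2b held 45 H3K27me3 and 68 H3K36me3 peaks in LLC-NR (log2 ratio −0.56) and 72 and 76 in LLC-R (−0.06). Wnt5a, the main ligand of beta-catenin-independent signaling, held 58 and 72 in LLC-NR (−0.28), then 83 and 94 in LLC-R (−0.16). Wnt7b, which acts in lung growth, held 136 and 153 (−0.14) and 185 and 192 (−0.03). The intervals of these 3 ligands included 0 in both lines.

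At the other end, Fzd9 held 9 H3K27me3 and 4 H3K36me3 peaks in its 2.29-kb body in LLC-NR, a log2 ratio of 1.2 whose interval ran from −0.64 to 3.35. Fzd8 followed with 13 and 6 peaks (1.15) and Wnt1 with 18 and 9 (1.03). These genes are short, and their intervals included 0. Among longer genes, Wnt7a, a ligand of vessel and nerve development, held 182 and 95 peaks in LLC-NR, a log2 ratio of 0.97 (0.60 to 1.34), and 203 and 163 in LLC-R, 0.34 (0.03 to 0.64). Wnt5b, whose body overlaps Fbxl14, had 0.57 (0.34 to 0.81) in LLC-NR. Wnt7a was 1 of 17 genes whose interval lay above 0 in LLC-NR and the only one in LLC-R. In LLC-R the highest ratios were those of Fzd10 (17 and 11 peaks) and Wnt1 (17 and 11), both 0.65, and Dkk1 (19 and 13), 0.57. By role, the median log2 ratio in LLC-NR was 0.65 for receptors, 0.61 for ligands, 0.50 for Sfrp genes, 0.45 for Dkk genes and −0.72 for co-receptors. In LLC-R it was 0.20, 0.13, 0.14, 0.09 and −0.19 in the same order.

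**Figure D4:**
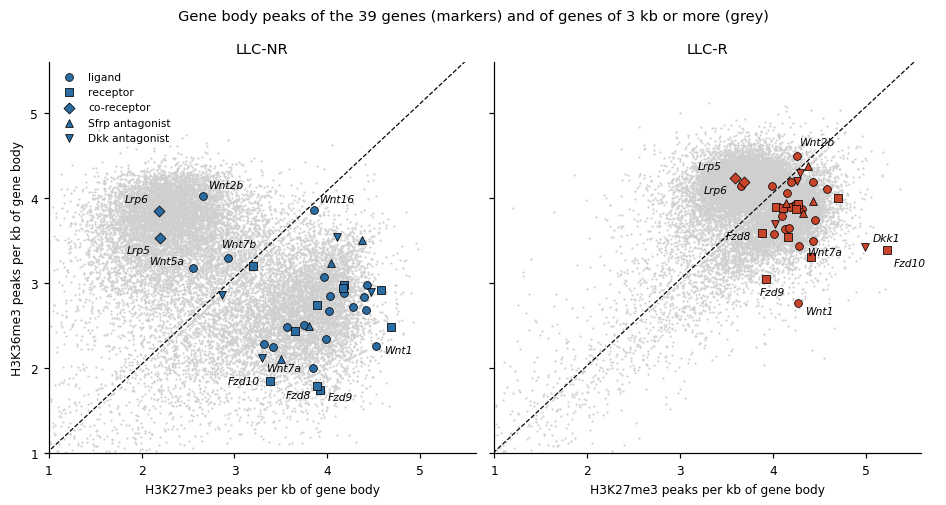
H3K36me3 against H3K27me3 in peaks per kb of gene body for the 39 genes (colored, shape by role) and for genes of 3 kb or more (grey), in LLC-NR (left) and LLC-R (right), 1 library per mark; both axes start at 1, and the dashed line marks the ratio of the means of all genes. Lrp5, Lrp6, Wnt2b, Wnt5a and Wnt7b lie above the line in each panel, and the other 34 lie on its H3K27me3 side.

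Along the gene, the 19 genes of 20 kb or more were divided into 3 segments of equal length. In Lrp6, H3K27me3 in LLC-NR was 2.32, 2.14 and 2.09 peaks per kb from the 5′ to the 3′ segment, and H3K36me3 3.66, 3.76 and 4.11. In Lrp5 the values were 2.27, 2.24 and 2.09 and 3.01, 3.74 and 3.83. In Wnt7b, H3K27me3 exceeded H3K36me3 in the 5′ segment (3.36 against 3.04 peaks per kb) and not in the other 2 (2.78 against 3.62 and 2.65 against 3.23). Wnt5a kept H3K36me3 above H3K27me3 in every segment in LLC-NR, but in LLC-R H3K27me3 was the higher in the 5′ segment (4.10 against 3.83). Wnt11, a ligand of cell movement, went in H3K27me3 from 4.63 through 4.03 to 3.29 peaks per kb in LLC-NR, and Wnt4 from 3.91 through 3.51 to 2.83. Dkk2 was even, with H3K27me3 of 4.04, 4.11 and 4.17 in LLC-NR. All genes of this length averaged 2.84, 2.75 and 2.78 H3K27me3 and 3.003, 3.11 and 3.19 H3K36me3 peaks per kb in LLC-NR.

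**Figure D5:**
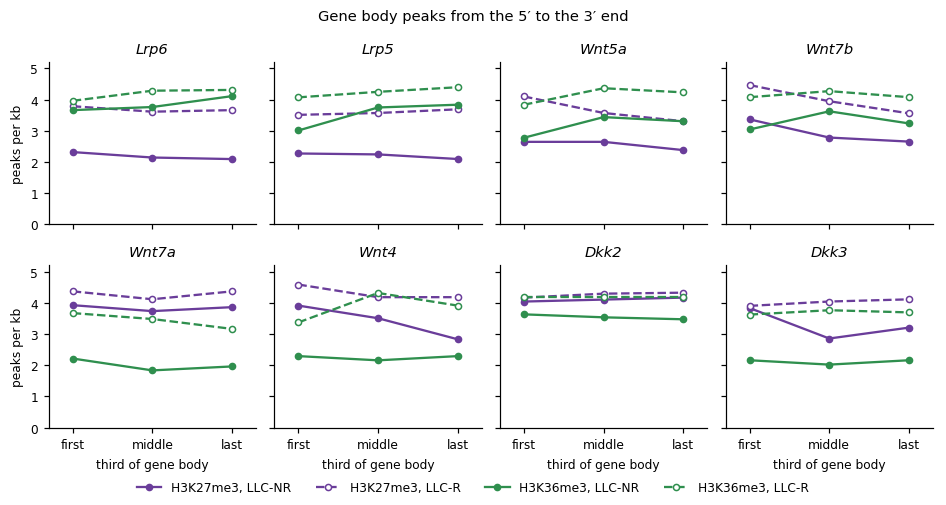
Peaks per kb (vertical axis) in 3 equal segments of the gene body from the 5′ to the 3′ end for 8 genes, H3K27me3 in purple and H3K36me3 in green, LLC-NR as filled points with solid lines and LLC-R as open points with dashed lines, 1 library each. In LLC-NR the green line lies above the purple one throughout Lrp6, Lrp5 and Wnt5a and below it throughout Wnt7a, Wnt4, Dkk2 and Dkk3.

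Between the lines, numbers of peaks in gene bodies were compared after division by the peaks of each library, and a ratio of 1.2 or its inverse was called where both libraries together held 20 peaks or more. H3K27me3 was called lower in LLC-R for 16 of 38 genes, against 9.79% of all genes, and higher for 4 (Fzd10, Lrp5, Lrp6 and Wnt2b), against 31.7%. The 16 were Dkk2, Fzd2, Fzd3, Fzd6, Fzd7, Fzd8, Sfrp2, Sfrp4, Wnt1, Wnt10a, Wnt11, Wnt3a, Wnt6, Wnt8a, Wnt8b and Wnt9b. Their numbers as deposited were close in the lines, for example 390 and 405 at Dkk2 and 189 and 175 at Wnt3a. The log2 ratio was −0.27 (−0.48 to −0.07) at Dkk2, −0.30 (−0.56 to −0.05) at Fzd3 and −0.44 (−0.75 to −0.14) at Wnt3a. It was 0.43 (0.20 to 0.65) at Lrp6 and 0.38 (0.13 to 0.62) at Lrp5. These 5 were the called genes whose interval excluded 0. Scaled by uniquely mapped reads instead, all 39 bodies were lower in LLC-R in H3K27me3, with log2 ratios of −0.34 at Lrp6 and −0.40 at Lrp5.

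The ratio followed the starting level over all genes. Sorted by H3K27me3 per kb in LLC-NR, the 5 equal groups of bodies had median log2 ratios of 0.52, 0.30, 0.10, −0.12 and −0.25 from the lowest to the highest. Of the 38 genes, 23 lay in the highest group and 0 in the lowest. All 16 genes called lower were among these 23, and 41.6% of all genes in that group were called lower. Lrp5 and Lrp6 lay in the second group, where 62.0% of all genes were called higher. Wnt2b lay in the middle group, where 5.61% were called higher, and Fzd10 in the fourth, where 0.114% were. The median of the 38 was −0.21, against 0.09 for all genes.

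H3K36me3 was called higher in LLC-R for 5 of 36 genes, against 10.1% of all genes, and lower for 3, against 29.4%. The 5 were Dkk3 (91 and 159 peaks, log2 ratio 0.36), Fzd4 (14 and 23, 0.27), Sfrp5 (9 and 17, 0.47), Wnt4 (50 and 86, 0.34) and Wnt7a (95 and 163, 0.34). All lay in the lowest of the 5 groups of bodies by H3K36me3 per kb in LLC-NR, where the median of all genes was 0.25 and 47.4% were called higher. The 3 lower were Lrp6 (463 and 504, −0.32), Wnt16 (47 and 51, −0.33) and Wnt2b (68 and 76, −0.28), from the highest group, with a median of −0.36 and 93.5% called lower. Only the interval of Lrp6 (−0.51 to −0.14) excluded 0, and scaled by uniquely mapped reads all 39 bodies were lower in LLC-R in H3K36me3. H3K4me3 was called higher for 3 and lower for 5 of 34 bodies (7.63% and 8.76% of all genes), and H3K9ac higher for 1 and lower for 3 of 36 (1.55% and 2.77%), and no interval of these 12 excluded 0. Scaled by uniquely mapped reads, 15 bodies were called higher and 1 lower in H3K4me3, and 36 called higher and 0 lower in H3K9ac. By direction alone, 33 of the 39 bodies were higher in LLC-R in H3K4me3 on this scale and 39 in H3K9ac. Shares of all genes on this scale were not counted.

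Pooled over the 10 kb around the TSS, the 39 genes held 1520 H3K27me3 peaks in LLC-NR with 1684 in LLC-R, a log2 ratio of −0.18 (−0.28 to −0.08) after division by the peaks of the library, against −0.005 for all genes and 0.04 for HCP genes. The 39 genes started higher in LLC-NR, at a mean of 38.97 peaks against 29.4 for all genes and 29.8 for HCP genes. These windows were not compared with genes of the same starting level. For H3K36me3 the numbers were 985 and 1461 and the log2 ratio 0.13 (0.01 to 0.24), a sign that turned to −0.65 when scaled by uniquely mapped reads. H3K4me3 gave −0.05 (−0.16 to 0.07) and H3K9ac −0.05 (−0.15 to 0.06). Scaled by uniquely mapped reads, H3K27me3 gave −0.95, and the signs of H3K4me3 and H3K9ac turned, to 0.22 and 0.64.

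Pooled over these promoters, the positions of H3K27me3 peaks coincided more often between the lines than over all promoters, but not in every role. A midpoint in LLC-R lay within 20 bp of one in LLC-NR for 96 of 262 H3K27me3 peaks, or 36.6% (30.8 to 42.8), against 29.5% over all promoters and 28.2% over HCPs. The active marks coincided less often than over HCPs. For H3K4me3 it was 35.2% (28.8 to 42.0) of 213 peaks, against 48.2% over HCPs and 39.9994% over all promoters. For H3K9ac it was 38.4% (31.3 to 45.8) of 185 peaks, against 49.8% over HCPs and 44.8% over all promoters. In both active marks the interval excluded the share over HCPs but included the share over all promoters. H3K36me3 gave 17.6% (12.3 to 23.9) of 182, against 20.9% over HCPs and 21.9% over all promoters. A chance coincidence is likelier where a promoter holds more LLC-NR peaks, and its part in these shares was not tested.

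The 2 Mb bin around each TSS was also compared, since a gain or loss of a chromosome segment acts on all marks. The log2 ratio of the bin's share of peaks, LLC-R over LLC-NR, lay above the central 95% of bins in H3K4me3 (−0.21 to 0.24) for Fzd10, at 0.36, and Fzd9, at 0.28, both on chromosome 5. The Fzd10 bin also gave 0.21 in H3K9ac, 0.31 in H3K27me3 and 0.37 in H3K36me3, all above the central 95% but H3K27me3. These values stand beside the higher H3K27me3 of Fzd10 in the body (11 and 17 peaks) and in the 10 kb around its TSS (29 and 46 peaks). The part of the bin in these differences was not tested. The Fzd9 bin gave 0.07 in H3K9ac beside the lower promoter H3K9ac. For the other 37 genes the H3K4me3 value ran from −0.20 at Fzd6 to 0.21 at Wnt8a. In single other marks, the Fzd8 bin lay above the central 95% in H3K9ac, at 0.13, and the Fzd7 bin below it in H3K36me3, at −0.23. The Dkk2 bin lay just below it in H3K27me3, at −0.19 against a lower bound of −0.18, which stands beside the lower H3K27me3 of the Dkk2 body (−0.27), and its part in that value was not tested.

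The other 52 genes of the pathway, from Porcn and Wls, which make and carry the ligands, to beta-catenin (Ctnnb1), were mixed. The body ratio was below 0 in 22 of the 52 in LLC-NR with 20 in LLC-R, against 47.9% and 49.1% of all genes. Their median was 0.34 and 0.08, against 0.03 and 0.02 for all genes. Below 0 in both lines were the transducers Dvl1, Dvl2 and Dvl3, the destruction complex genes Apc, Axin1, Csnk1a1, Gsk3a and Gsk3b, Ctnnb1, Porcn and Wls. Above 0 in both were the secreted agonists Rspo1, Rspo2, Rspo3 and Rspo4 and the secreted antagonists Frzb, Notum, Sost and Wif1. Partners and targets of beta-catenin lay on both sides, with Axin2, Lef1, Tcf7 and Myc above 0 and Ccnd1 and Pygo2 below 0 in both lines. The lowest value in LLC-NR was −1.06 at Gsk3a and the highest 1.11 at Kremen2. At promoters, 2 of the 52 were higher and 3 lower in LLC-R by 3 or more H3K4me3 peaks (2.5% and 5.26% of all genes), 2 and 4 by H3K9ac (1.11% and 6.4%) and 3 and 0 by H3K27me3 (13.1% and 0.519%).

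The tissue is labelled lung, although the tumors grew under the skin. The ratio was below 0 for all 7 genes used by every cell in LLC-NR and 6 of 7 in LLC-R. It was below 0 for 1 and 0 of 5 lung epithelial markers (Sftpc, Sftpb, Scgb1a1, Nkx2-1 and Ager) and for 2 and 1 of 4 carcinoma markers (Krt8 and Krt18, then Krt8). It was below 0 for 0 and 1 of 5 leukocyte, 0 and 0 of 4 endothelial and 1 and 1 of 5 fibroblast markers. Summed promoter H3K4me3 of the leukocyte list was 24 peaks in LLC-NR with 17 in LLC-R, of the endothelial list 20 and 17, and of the fibroblast list 28 and 28. No list was without H3K4me3 peaks, and the part of host cells in the values above was not tested.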

How the data were processed

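The deposited files gave, for each of the 8 libraries, the positions of the peaks that the authors made with GeneTrack (settings not given in the sources used here) from uniquely mapped reads, aligned to mm9 with Bowtie 0.12.7. Each peak was 147 bp wide without height, and no input library was used here. Peaks of a library did not overlap, so the number a region can hold is limited. Midpoints were counted in promoters, in 10 kb around the TSS and in bodies of the protein-coding genes of GENCODE vM1. For a gene with several starts, the one with the most transcripts was used, and of equals the most 5′. CpG classes followed 500-bp intervals with 55% G+C and observed over expected CpG of 0.6 (HCP) and 0.4 (LCP). Scales tried were the peaks of each library, uniquely mapped reads and windows over 5 kb from the TSS of any protein-coding gene. These background windows may lie inside genes. Named genes were those differing by 3 or more promoter peaks, called bodies, the 3 highest and lowest body ratios, genes with differing states, non-HCP genes, neighbouring pairs, and Fzd9, Wnt2, Sfrp5, Fzd1, Lrp6 and Wnt2b. The 39 genes follow a rule on symbols alone, but this family and the other lists were proposed with earlier results of these data known. Counting and intervals were tested on simulated data, the intervals on independent random counts, with NumPy 2.4.6, SciPy 1.17.1 and pandas 2.3.3 under Python 3.11.15.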

Additional observations from a re-analysis of the deposited data

How the results depend on the processing

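No paired analysis was possible because the labels give no replicate numbers and each line and mark has 1 library. The files hold no peak height, so a stricter peak threshold was not run. The annotated 5′ end gave the same TSS for all 39 genes. Of 168 alternative values, 101 stayed within a set range of the main value. The range was its interval for a ratio or share, and 1.5 times for a count. For medians of the body ratio and mean promoter peaks of HCP members it was an SD across genes either way. Some values could not move: promoter differences at the 5′ end, pooled ratios without the minimum of peaks, and genes with more peaks when called at 2 peaks. The tally is therefore no measure of how robust the results are. Scaled by uniquely mapped reads, the pooled log2 ratio in 10 kb was −0.65 for H3K36me3 (from 0.13), −0.95 for H3K27me3, 0.22 for H3K4me3 and 0.64 for H3K9ac, and in bodies −0.81, −0.86, 0.26 and 0.65. The sign thus turned for H3K36me3, H3K4me3 and H3K9ac in 10 kb and for H3K4me3 and H3K9ac in bodies, and stayed below 0 for H3K27me3 in both and for H3K36me3 in bodies.

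Promoters higher in H3K4me3 numbered 4 as deposited, 7 by uniquely mapped reads, 7 at 2 peaks and 0 by background windows, where the 4 differences were just under 3. Promoters lower in H3K4me3 numbered 0 as deposited, 3 with 1 kb downstream and 5 at 2 peaks. For H3K9ac, 1 was higher as deposited, 2 with 1 kb downstream, 3 with 1 base or more inside, 18 by uniquely mapped reads and 3 at 2 peaks. H3K9ac was lower at 1 promoter as deposited, at 4 with 1 kb downstream, at 3 with 1 base inside, at 7 at 2 peaks, and at 0 by peaks of the library, uniquely mapped reads or background windows. For H3K27me3, 3 were higher as deposited, 10 at 2 peaks, and 0 by peaks of the library, uniquely mapped reads or background windows. By uniquely mapped reads 17 were lower in H3K27me3, where 0 were as deposited.

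With 2 times the mean required for active marks, LLC-NR had 0 active, 0 bivalent, 34 repressive and 5 unmarked promoters, and LLC-R 0, 0, 36 and 3, as had to follow, since no promoter held more than 9 peaks and the thresholds lay above 9, so this setting says nothing about the states. With the mean of the same CpG class, repressive promoters numbered 13 in LLC-NR with 9 in LLC-R, and 1 was unmarked in each. With background windows in place of all bodies, 8 body ratios were below 0 in LLC-NR with 11 in LLC-R. CpG intervals from 0.5 kb upstream to 2 kb downstream left 0 LCPs. Shared positions within 10 bp were 24.9% for H3K4me3, 29.7% for H3K9ac and 25.6% for H3K27me3, and within 40 bp 45.5%, 49.7% and 50.4%. Other causes of these moves were not tested.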
